A study of Mus musculus with 6 samples.

Results

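A set of 10 genes of the RANKL and osteoclast axis were followed in cultured mouse osteoblasts, the bone-forming cells. They were chosen by name for their roles, with earlier results of these data known, and are 10 of the 55471 genes in the count table. They comprise Tnfsf11 (RANKL), Tnfrsf11b (osteoprotegerin), Tnfrsf11a (RANK), Csf1 (M-CSF), the osteoclast proteins Ctsk, Acp5 and Mmp9, the fusion genes Dcstamp and Ocstamp, and the proton pump gene Atp6v0d2. Counts were high enough for a test in 7 of them. Cathepsin K (Ctsk) was 5.23-fold lower in cells of the Tet triple conditional knockout (TCKO) than in wild-type cells (WT). No other tested gene of the 10 passed the threshold in that comparison, where 8.63% of all tested genes were lower and 9.07% higher.

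Bone is removed by osteoclasts, large multinucleated cells that form from macrophage precursors. Osteoblasts and other stromal cells control this step by secreting M-CSF and displaying RANKL, which bind their receptors CSF1R and RANK on the precursor. Osteoprotegerin, secreted by the same stromal cells, is a decoy receptor that captures RANKL, so the balance of RANKL and osteoprotegerin sets how many osteoclasts form. The mature osteoclast fuses through DC-STAMP and OC-STAMP, acidifies the bone surface with a vacuolar proton pump, and digests the matrix with cathepsin K and MMP9.

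Poly(A) RNA was sequenced from primary osteoblasts of 3-day-old C57BL/6 mice, with 3 libraries labelled WT and 3 labelled TCKO. TCKO mice carried the Prx1-Cre transgene with floxed alleles of all targeted genes (Tet1fl/fl, Tet2fl/fl and Tet3fl/fl), and WT mice were given as wild type with no further statement of their alleles. The TET enzymes oxidise methylated cytosine, and Cre from the Prx1 promoter acts in limb and skull mesenchyme, so that blood-derived cells in a culture keep their Tet genes. Cells were digested from parietal bone with collagenase and Dispase and cultured for 3 days, so the osteoclast genes were read in a population isolated as osteoblasts. The number of mice behind each library is not stated.

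Library totals ran from 8019999 to 10177214 counts, and 3 counts, the expected number that an observed 0 can still hide, corresponded to 0.299 to 0.373 CPM (counts scaled to library size). Such floors cover counting error only. Replicates 1 and 2 of each genotype lay close together, where the chi-square of their counts per degree of freedom was 1.69 (WT) and 2.04 (TCKO), against 16.46 to 23.32 for pairs with replicate 3. The mitochondrial share was 2.22% and 2.47% in the replicate 3 libraries and 1.11% to 1.24% in the others. TCKO replicate 3 held 4583 Xist counts and 0 Ddx3y counts, the female pattern, whereas the other 5 libraries held 1 to 4 Xist counts and 675 to 1094 Ddx3y counts. Within replicate 3 a difference by genotype therefore cannot be told apart from one by sex. Of the targeted genes Tet1 was lower in TCKO (log2 fold change -0.97, edgeR adjusted p = 0.00648), Tet2 did not pass the test (-0.14, adjusted p = 0.545) and Tet3 was higher (0.51, adjusted p = 0.00745). Counts cover all exons, and every direction below rests on the labels. Of the osteoblast markers, Col1a1 held 101033 to 223459 counts per library, while the late markers Bglap and Bglap2 held 0 to 5 counts.

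Promoter windows in the RefSeq table (mouse build GRCm38.p6, 250 bases before to 50 bases after a start) were found for 5 of the 10 genes. Those of Ctsk, Tnfsf11 and Tnfrsf11a are printed because Ctsk changed most, Tnfsf11 is the ligand, and the window of its receptor has the most CpG dinucleotides, the sites that TET enzymes act on when methylated. The windows are 5′ to 3′ on the strand of the gene, at chr3:95498960-95499259 (plus strand, Ctsk), chr14:78307994-78308293 (minus strand, Tnfsf11) and chr1:105780473-105780772 (plus strand, Tnfrsf11a). Capitals mark each CpG and each match to GAGGAA or its complement TTCCTC, the core bound by PU.1, the macrophage factor encoded by Spi1.
Ctsk: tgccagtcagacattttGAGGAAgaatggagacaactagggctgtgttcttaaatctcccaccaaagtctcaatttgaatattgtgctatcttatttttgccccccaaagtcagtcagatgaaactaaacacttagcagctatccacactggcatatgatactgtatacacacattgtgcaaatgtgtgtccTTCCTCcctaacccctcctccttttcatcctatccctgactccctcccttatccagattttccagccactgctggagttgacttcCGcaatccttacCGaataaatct
Tnfsf11: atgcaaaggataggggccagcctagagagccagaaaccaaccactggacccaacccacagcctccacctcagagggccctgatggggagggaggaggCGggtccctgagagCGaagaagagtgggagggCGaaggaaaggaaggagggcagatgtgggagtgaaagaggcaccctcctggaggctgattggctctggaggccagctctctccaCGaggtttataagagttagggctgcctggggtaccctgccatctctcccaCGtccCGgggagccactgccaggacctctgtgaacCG
Tnfrsf11a: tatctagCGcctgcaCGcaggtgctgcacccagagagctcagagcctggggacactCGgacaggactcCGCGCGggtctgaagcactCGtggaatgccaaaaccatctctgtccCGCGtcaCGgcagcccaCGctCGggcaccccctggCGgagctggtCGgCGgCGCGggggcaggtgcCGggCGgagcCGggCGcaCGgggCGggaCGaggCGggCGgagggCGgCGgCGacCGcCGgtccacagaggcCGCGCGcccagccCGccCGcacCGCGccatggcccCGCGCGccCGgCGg
The Ctsk window held 2 CpG and the Tnfsf11 window 7, against a median of 7 (quartiles 3 and 20) over 32851 windows of the same length. The Tnfrsf11a window held 43, and 97.8% of all windows held no more than that. The PU.1 core was matched 2 times in the Ctsk window, once on each strand, and in no other window of the set, while 28.3% of all windows held it. The Runt core TGTGGT, the letters bound by RUNX2, was found on neither strand in any of the 7 windows of the 5 genes, against 16.8% of all windows. These searches describe letters, and neither a match nor its absence is evidence about binding. The study reported RUNX2 at the Ctsk promoter region in published ChIP-seq data, and Ctsk as hypermethylated with closed chromatin in TCKO. Binding and methylation were not analysed here. Tnfrsf11b, Mmp9, Dcstamp, Ocstamp and Atp6v0d2 had no window in the table.

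Measured per kilobase of exon (RPKM), the genes of the set fell into a high and a low group in WT osteoblasts. Csf1 stood at 225 ± 48.2 RPKM (SD, n = 3), Ctsk at 80.3 ± 8.78 and Tnfrsf11b at 75.2 ± 17.6, at the 98.4th, 95.3rd and 95.0th percentile of tested genes. The ranges of the last 2 overlapped. Tnfsf11 stood at 1.87 ± 0.691, Mmp9 at 1.18 ± 1.05, Acp5 at 1.16 ± 0.384, Atp6v0d2 at 0.645 ± 0.349 and Tnfrsf11a at 0.485 ± 0.140 RPKM. The ranges of neighbours in this lower order overlapped. Dcstamp was at 0 in all WT libraries, and Ocstamp held 1 count in WT replicate 1 and 0 in the others. In the TCKO libraries Csf1 (198 ± 73.0 RPKM) and Tnfrsf11b (65.3 ± 2.67) stayed far above the rest, while Ctsk stood at 15.3 ± 3.57 and Tnfsf11 at 3.93 ± 2.01.

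**Figure D1:**
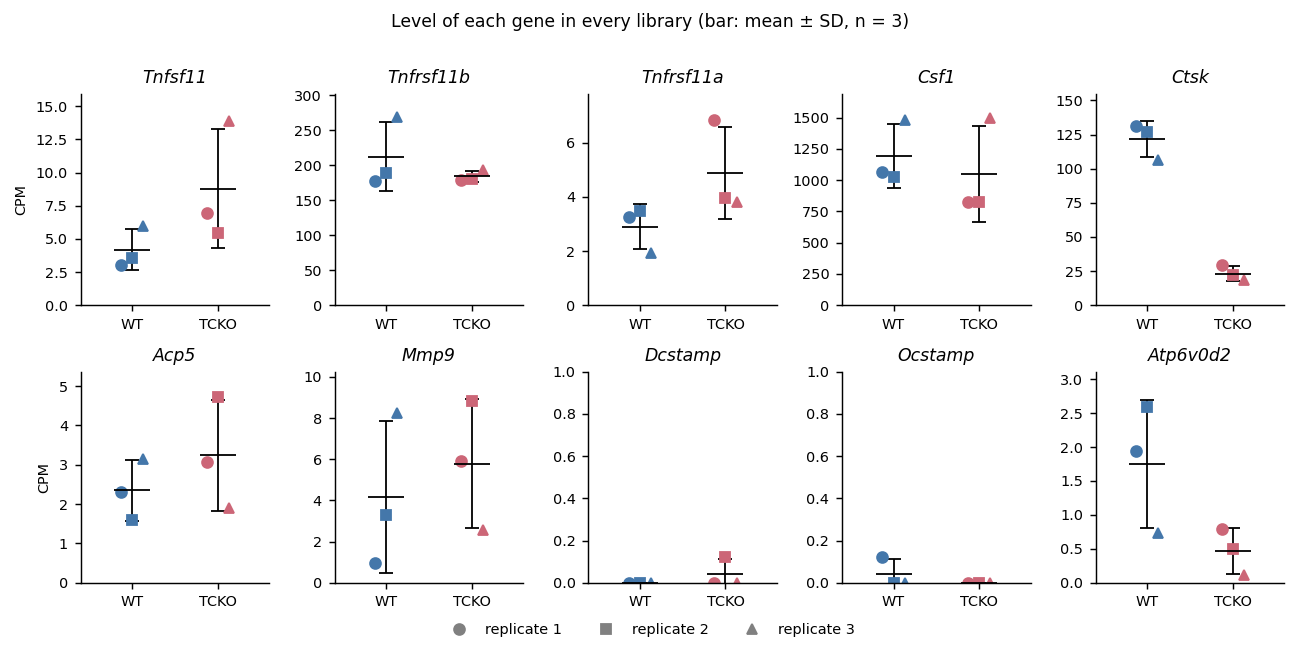
Level of each of the 10 genes in CPM (each panel with its own axis from 0) in 3 WT (blue) and 3 TCKO (red) libraries, with the symbol giving the replicate and the bar the mean ± SD. The Ctsk panel shows TCKO libraries between 18.5 and 29.1 CPM, all below the WT libraries at 106 to 131, while the genotypes overlap for Tnfsf11, Tnfrsf11b, Csf1, Acp5, Mmp9 and Atp6v0d2.

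To see whether the osteoclast-inducing ligand differed between genotypes, Tnfsf11 (ENSMUSG00000022015, chromosome 14, 78277445 to 78308043, GRCm38) was examined first. WT replicates 1, 2 and 3 held 25, 36 and 49 counts, or 3.03, 3.59 and 5.94 CPM. The TCKO libraries, in the same order, held 61, 44 and 124 counts, or 6.96, 5.47 and 13.9 CPM. TCKO was the higher library within each replicate number, but TCKO replicate 2 lay below WT replicate 3, so the genotypes overlapped. The log2 fold change was 1.08 ± 0.40 (SE, unadjusted 95% interval 0.15 to 2.01), and the gene did not pass the threshold when adjusted over all tested genes (edgeR adjusted p = 0.106). With the replicate number as a block it passed, at a log2 fold change of 1.03 and an edgeR adjusted p of 0.0123. Leaving out TCKO replicate 3, the library with the highest level and the only one with the female pattern, gave 0.58 (edgeR adjusted p = 0.230). Over all alternatives the adjusted p ran from 0.00315 to 0.305.

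Tnfrsf11b (ENSMUSG00000063727, chromosome 15, 54250619 to 54278484) encodes osteoprotegerin, the decoy for RANKL. Its level was 178, 189 and 269 CPM in WT and 179, 180 and 193 CPM in TCKO. Replicates 1 and 2 were alike in the genotypes, and the difference came from WT replicate 3. The log2 fold change of -0.20 ± 0.15 did not pass the test (edgeR adjusted p = 0.398, 95% interval -0.55 to 0.14), and without WT replicate 3 it was 0.0031.

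The balance of ligand and decoy was then computed within each library, where no scaling between libraries is needed. With 1 count added to each gene, Tnfsf11 counts per kilobase were 2.23%, 2.46% and 2.84% of those of Tnfrsf11b in WT replicates 1, 2 and 3. In TCKO they were 4.98%, 3.91% and 9.17%. All TCKO libraries lay above all WT libraries. Of all tested genes 38.3% showed no overlap between genotypes in CPM, in either direction. Tnfsf11 alone did overlap. WT replicate 3 held the most Tnfrsf11b, at 269 CPM against 178 to 193 CPM in the other libraries, which lowered its ratio. The mean log2 ratio was -5.32 ± 0.18 in WT and -4.15 ± 0.63 in TCKO (SD, n = 3), a difference of 1.17 or 2.26-fold, with a two-sided exact permutation p of 0.1, the smallest that 3 against 3 libraries can give. Differences within replicate numbers were 1.16, 0.67 and 1.69. Replicate 3 contributed the largest of them, and within replicates 1 and 2 the mean difference was 0.91. In newborn TCKO mice the study reported no significant effect on osteoclasts. The RNA ratio in cultured cells does not measure osteoclast number.

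**Figure D2:**
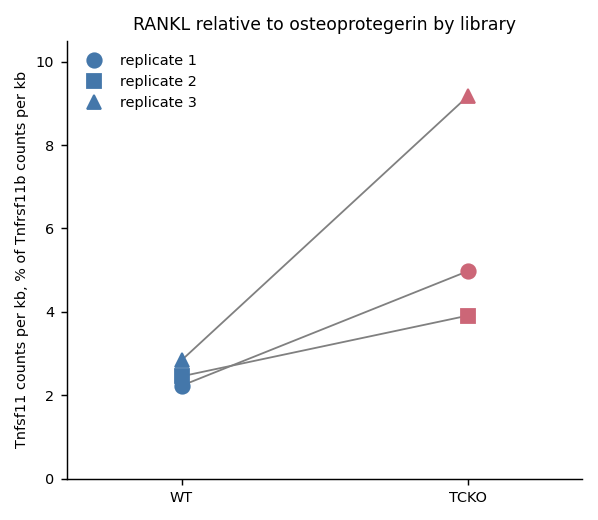
Tnfsf11 counts per kilobase as a percentage of Tnfrsf11b counts per kilobase in each library (1 count added to each gene), with lines joining WT (blue) and TCKO (red) libraries of the same replicate number. The 3 TCKO libraries sit between 3.91% and 9.17%, above the WT libraries at 2.23% to 2.84%.

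Tnfrsf11a (ENSMUSG00000026321, chromosome 1, 105780718 to 105847981) encodes RANK, the receptor carried by osteoclast precursors. Counts were 27, 35 and 16 in WT against 60, 32 and 34 in TCKO, or 3.27, 3.49 and 1.94 CPM against 6.85, 3.98 and 3.81 CPM. No overlap between genotypes in CPM was seen, as was the case for 38.3% of all tested genes. The log2 fold change of 0.74 ± 0.33 did not pass the test (edgeR adjusted p = 0.163, 95% interval -0.02 to 1.50) and passed in none of 16 alternatives.

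Csf1 (ENSMUSG00000014599, chromosome 3, 107741048 to 107760469) encodes M-CSF, the growth factor of macrophages and their osteoclast descendants. Its level was 1061, 1027 and 1484 CPM in WT and 827, 823 and 1493 CPM in TCKO. Replicate 3 was the highest library of each genotype, with nearly the same level in both, and TCKO was the lower library in replicates 1 and 2. Its log2 fold change was -0.18 ± 0.25 (edgeR adjusted p = 0.664, 95% interval -0.77 to 0.40). It was -0.52 without TCKO replicate 3 (edgeR adjusted p = 0.0546) and 0.0060 without WT replicate 3.

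The clearest difference of the set was in Ctsk (ENSMUSG00000028111, chromosome 3, 95499256 to 95509362), the collagen-degrading cysteine protease of osteoclasts that osteoblast-lineage cells can also transcribe. WT replicates 1, 2 and 3 held 1086, 1268 and 878 counts, against 255, 177 and 165 in TCKO. Scaled to depth these were 131, 127 and 106 CPM against 29.1, 22.0 and 18.5 CPM. The lowest WT library lay above the highest TCKO library by a wide margin. The log2 fold change was -2.39 ± 0.17 (95% interval -2.77 to -2.00, edgeR adjusted p = 0.000148). Differences within replicate numbers, on the log2(CPM + 1) scale, were -2.14, -2.47 and -2.46. Ctsk kept its direction and passed in all 16 alternatives, with values from -2.59 to -2.24. It was -2.24 without TCKO replicate 3 and -2.47 without WT replicate 3, and the highest adjusted p, 0.0133, came with replicates 1 and 2 summed. Ctsk was among genes that the study picked from these libraries together with methylation data, so its direction here is not independent evidence. In bulk libraries, fewer cells of a type and less RNA per cell cannot be told apart.

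Acp5 (ENSMUSG00000001348, chromosome 9, 22126727 to 22135711), the tartrate-resistant acid phosphatase used to stain osteoclasts, had WT counts of 19, 16 and 26 against 27, 38 and 17 in TCKO. TCKO was the higher library in replicates 1 and 2 and lower in replicate 3. Its log2 fold change was 0.47 ± 0.40 (edgeR adjusted p = 0.467). Mmp9 (ENSMUSG00000017737, chromosome 2, 164940780 to 164955850), a gelatinase of osteoclasts and other invasive cells, varied most within a genotype, with counts of 8, 33 and 68 (WT) against 52, 71 and 23 (TCKO). Its differences within replicate numbers on the log2(CPM + 1) scale were 1.82, 1.19 and -1.37, so replicate 3 went the other way. In the fit Mmp9 stood at 0.47 ± 0.67 on the log2 scale (edgeR adjusted p = 0.674, 95% interval -1.08 to 2.02).

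The fusion genes Dcstamp and Ocstamp were below the detection floor, and the proton pump gene Atp6v0d2 was low, at 1 to 26 counts. Dcstamp (ENSMUSG00000022303, chromosome 15, 39745930 to 39760938) held 0 counts in 5 libraries and 1 in TCKO replicate 2. Ocstamp (ENSMUSG00000027670, chromosome 2, 165393760 to 165400405) held 0 in 5 libraries and 1 in WT replicate 1. Both encode membrane proteins required for fusion into multinucleated cells, and no fold is given for either. Atp6v0d2 (ENSMUSG00000028238, chromosome 4, 19876841 to 19922605), a proton pump subunit enriched in osteoclasts, had counts of 16, 26 and 6 in WT against 7, 4 and 1 in TCKO. TCKO was the lower library within each replicate number, while TCKO replicate 1 lay above WT replicate 3 in CPM (0.799 against 0.727). The gene was too low for the main test. With no filter beyond 1 count, which tested 26350 genes, its log2 fold change was -1.89 ± 0.59 with an edgeR adjusted p of 0.0356.

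Over the set, 1 of 7 tested genes was lower in TCKO (Ctsk) and 0 were higher, against 8.63% and 9.07% of all 13826 tested genes. At an unadjusted p under 0.05, 1 was higher (Tnfsf11) in edgeR, and DESeq2 called 0 higher. With the replicate block 1 of 7 was higher (Tnfsf11), against 12.0% of all tested genes. CPM did not overlap between genotypes for 2 of 7 (Ctsk and Tnfrsf11a), against the 38.3% of all tested genes given above. The median log2 fold change over the 7 was 0.47, with 3 below 0 and 4 above, and that of all tested genes was 2e-04.

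**Figure D3:**
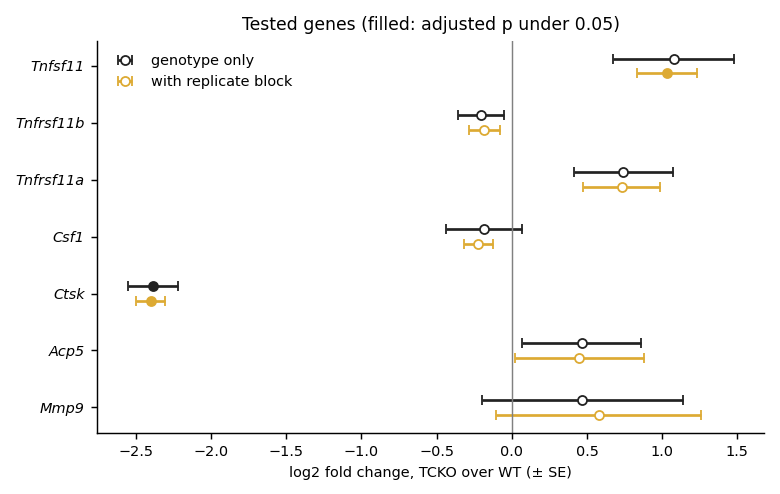
Log2 fold change (TCKO over WT) with its SE for the 7 tested genes, fitted with genotype only (black) and with the replicate number as a block (yellow), filled where the edgeR adjusted p was under 0.05. Ctsk lies at -2.39 and -2.40 and is filled in both fits, and Tnfsf11 at 1.08 and 1.03 is filled with the block.

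Because Ctsk is also an osteoclast and macrophage-lineage gene, markers of blood-derived cells were read in the same libraries. Summed over 18 haematopoietic and macrophage markers, the level was 856, 868 and 444 CPM in WT and 597, 640 and 182 CPM in TCKO, a ratio of 1.53 between the WT and TCKO means. The sum was lower in TCKO within each replicate number, as was Ctsk. The ratio of the sum was 1.39 for replicates 1 and 2 and 2.45 for replicate 3. TCKO replicates 1 and 2 had higher sums than WT replicate 3, but lower Ctsk (29.1 and 22.0 against 106 CPM). The difference between the genotype means of the log2 sum per library, unlike the ratio of mean sums above, was -0.75. It was -0.92 without Lyz2 and Csf1r, the most abundant of the markers. Of 17 tested markers 4 fell, 0 rose and all 17 had a negative log2 fold change, with a median of -0.82, against 8.63% lower among all tested genes. None rose at an unadjusted p under 0.05 in edgeR or by DESeq2. With the replicate block 14 fell, against 11.5% of all tested genes. With a library left out the number was 3 (TCKO replicate 3), 7 (WT replicate 3), 2 (TCKO replicate 2) or 1 (each of the others). Among all tested genes the number lower ran from 550 to 1509 in those fits, against 1193 with all libraries. The markers that fell were Spi1 (-1.83, edgeR adjusted p = 0.0148), the macrophage adhesion receptor Adgre1 (-1.44, adjusted p = 0.0100), the M-CSF receptor Csf1r (-1.21, adjusted p = 0.0253) and the integrin Itgam (-1.08, adjusted p = 0.0279). Lyz2, the most abundant of them, had -0.52 (edgeR adjusted p = 0.482, and 0.0433 with the block). Without WT replicate 2 the edgeR adjusted p of Itgam was 0.113 and that of Spi1 0.0652. The part of these cells in the Ctsk difference was not tested. Some osteoclast genes were at or near 0, with Siglec15 at 0 in all libraries and the calcitonin receptor Calcr at 1 count or fewer. Slc9b2 was at 0 to 3 counts and Oscar at 3 to 7. Others were not, with the integrin subunit Itgb3 at 211 to 535 counts per library, and Ctsk, Acp5 and Mmp9 at the counts given above. Lymphocyte markers were at 0 in every library for 5 of 9, and summed to 0.112 to 1.94 CPM.

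**Figure D4:**
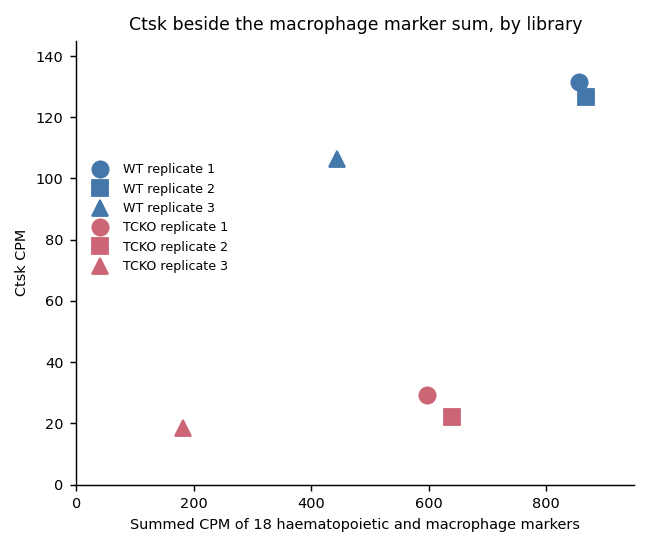
Ctsk level (CPM, vertical) against the summed CPM of 18 haematopoietic and macrophage markers (horizontal) in each library. Within each replicate number both values are lower in TCKO, with marker sums of 597 against 856, 640 against 868 and 182 against 444 CPM. Across numbers the order differs, as TCKO replicates 1 and 2 have higher sums than WT replicate 3 but lower Ctsk (29.1 and 22.0 against 106 CPM).

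The osteoblast markers were read beside Ctsk in the same way. Of 10 tested, 5 fell and 1 rose, with a median of -0.65 (all tested genes 8.63% lower and 9.07% higher). Alpl, the alkaline phosphatase of mineralising osteoblasts, had -3.54 (edgeR adjusted p = 0.00743), and the matrix protein gene Sparc -0.95 (adjusted p = 0.00198). Spp1, the secreted matrix protein osteopontin, rose by 2.62 (adjusted p = 0.00669). Col1a2 had -0.85 (edgeR adjusted p = 0.0676, and 0.0180 with the block). Leaving out TCKO replicate 3 raised the markers that fell to 8. The summed level of all 12 markers was 40827 to 43675 CPM in WT and 22303 to 37060 CPM in TCKO. Their part in the Ctsk difference was not tested. Periosteal and mesenchymal markers moved both ways, with 2 of 8 lower (Eng -1.44 and Prrx1 -0.43) and 2 higher (Thy1 1.18 and Mcam 1.16), and 4 lower with the block. Thy1 was at an edgeR adjusted p of 0.135 without TCKO replicate 1 and Prrx1 at 0.150 without WT replicate 2. Acta2 had 0.26 (edgeR adjusted p = 0.179). Of 2 tested osteocyte markers none passed in edgeR, at an unadjusted p under 0.05 or in DESeq2, and Pdpn had 0.18 (adjusted p = 0.156).

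Ligands and receptors around the RANKL axis were examined as a list of 7, which holds 4 genes of the set. Of its genes 3 fell and 0 rose in edgeR, with a median of -0.20, and 1 rose with the block (Tnfsf11). The shares of all tested genes for this and the following lists are 8.63% lower and 9.07% higher, and 11.5% and 12.0% with the block. With 1 library left out 550 to 1509 of 13826 tested genes were lower and 603 to 1613 higher. With replicates 1 and 2 summed 169 were lower and 217 higher. Where a call below was lost with 1 library left out, the highest such adjusted p is given with its library. Il34, the second ligand of CSF1R, fell from 19.7, 15.5 and 11.9 CPM in WT to 4.57, 4.10 and 3.25 CPM in TCKO, with a log2 change of -1.98 ± 0.23 (edgeR adjusted p = 0.00152). Its genotypes did not overlap, and it passed in all 16 alternatives. Csf1r, the receptor of M-CSF and IL-34, held 36.7, 31.3 and 18.5 CPM in WT and 15.1, 13.8 and 8.53 CPM in TCKO. Lgr4, a second receptor for RANKL, had -0.55 (adjusted p = 0.0207). Without WT replicate 1 Csf1r was at an edgeR adjusted p of 0.0955, and without TCKO replicate 2 Lgr4 was at 0.0791. The number that fell was 1 without WT replicate 2, TCKO replicate 1 or TCKO replicate 2.

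In the list of osteoblast signals that act on osteoclast formation 9 of 18 tested genes rose and 0 fell in edgeR, with a median of 0.41, against 9.07% higher and 8.63% lower among all tested genes. At an unadjusted p under 0.05, by DESeq2 and with the block, 1 was lower (11.5% of all tested genes were lower with the block). Il11, a cytokine that raises RANKL in stromal cells, was 2.06, 3.09 and 9.46 CPM in WT and 17.7, 18.3 and 81.3 CPM in TCKO (log2 fold change 3.02 ± 0.77, edgeR adjusted p = 0.0317). Replicate 3 was the highest library of both genotypes, and the genotypes did not overlap. Ptgs2, the inducible cyclooxygenase of prostaglandin synthesis, had 1.67 (adjusted p = 0.0460). Cxcl12, a chemokine that draws in precursors, rose from 25.7, 29.5 and 33.7 CPM to 85.4, 80.1 and 65.6 CPM (1.38, adjusted p = 0.000655). Sema3a, a secreted semaphorin that restrains osteoclast formation, rose from 78.8, 85.8 and 87.3 CPM to 199, 186 and 203 CPM (1.22, adjusted p = 0.000124), so the list held changes in genes of opposite action. Fstl1, the most abundant gene that did not pass, had -0.23 (adjusted p = 0.0922). Cxcl12 and Sema3a passed in all 16 alternatives. Without WT replicate 2 Il11 was at an edgeR adjusted p of 0.127 and Ptgs2 at 0.155. The number higher fell to 4 without WT replicate 1 and also without WT replicate 2, and it was 2 with replicates 1 and 2 summed. Among all tested genes the number higher fell too, from 1254 to 647 without WT replicate 1, 603 without WT replicate 2 and 217 with the sums.

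Regulators of Tnfsf11 in stromal cells had 5 of 15 tested genes lower and 1 higher (median 0.11), and 2 higher with the block. Those that fell most were Lifr, a receptor chain for LIF (-0.91, edgeR adjusted p = 0.00109), the transcription factor Mef2c (-0.68, adjusted p = 0.0135), Runx2, the master factor of osteoblasts (-0.45, adjusted p = 0.00397), and Rxra, the partner of the vitamin D receptor (-0.44, adjusted p = 0.0155). Il6st, the shared chain of IL-6 family receptors, had 0.11 (adjusted p = 0.821). Mef2c was at 0.0593 without TCKO replicate 1 and Rxra at 0.0720 without WT replicate 1 (edgeR adjusted p), and 2 genes were lower without WT replicate 1 or TCKO replicate 2 and 3 without TCKO replicate 1.

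Among 25 transducers of RANK and M-CSF signals 5 fell and 1 rose (median -0.04), and the number lower was 2 without WT replicate 1, 3 without TCKO replicate 3 and 1 without WT replicate 2, TCKO replicate 1 or TCKO replicate 2. With the block 3 rose. Those that fell most were Cyld, a deubiquitinase that restrains RANK signalling (-0.74, edgeR adjusted p = 0.00583), the NF-kappaB subunit Relb (-0.61, adjusted p = 0.0330) and Ikbkg, the scaffold of the IKK complex (-0.54, adjusted p = 0.0239). Src, a kinase needed for the ruffled border, was higher (0.50, adjusted p = 0.00333), and Akt1 had 0.23 (adjusted p = 0.0568). Relb was at 0.111 without TCKO replicate 1 and Ikbkg at 0.0955 without WT replicate 2 (edgeR adjusted p).

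Osteoclast transcription factors and their repressors had 3 of 19 tested genes lower and 1 higher (median -0.45), with 0 lower without WT replicate 1, WT replicate 2 or TCKO replicate 1, 5 lower without TCKO replicate 3, and 2 higher with the block. The genes that passed were Spi1, given above, Nfatc1, the master factor of osteoclast formation (-0.54, edgeR adjusted p = 0.0408), Jdp2, an AP-1 family protein (-0.50, adjusted p = 0.0187), and Bcl6, a repressor of osteoclast genes, which was higher (0.58, adjusted p = 0.00648). Fosl2, an AP-1 subunit, had -0.14 (adjusted p = 0.235). Nfatc1 was at 0.137 without TCKO replicate 1, Jdp2 at 0.0803 without WT replicate 1 and Spi1 at 0.0652 without WT replicate 2 (edgeR adjusted p).

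The ITAM pathway gives the co-stimulus to RANK in precursors. A list of genes around it had 2 of 7 tested genes lower and 1 higher (median -0.76), and 4 lower with the block. Genes that act for and against the co-stimulus were counted together, so these counts give no direction for the pathway. The number lower was 1 without WT replicate 2 or TCKO replicate 2. Syk, the kinase of the pathway, fell from 18.6, 19.9 and 18.1 CPM to 8.33, 6.34 and 8.41 CPM (-1.29, edgeR adjusted p = 0.00130). The paired immunoglobulin-like receptor Pirb had -1.23 (adjusted p = 0.0159), and the kinase Tec was higher (0.91, adjusted p = 0.00924). Fcer1g, an ITAM adaptor, had -0.67 (edgeR adjusted p = 0.284, and 0.0404 with the block). Pirb was at 0.0726 without WT replicate 2.

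Of the fusion list, which includes Dcstamp and Ocstamp, 4 of 7 tested genes fell and 1 rose (median -0.64), with 6 lower with the block and 0 with replicates 1 and 2 summed. Sirpa, the receptor of CD47, had -0.92 (edgeR adjusted p = 0.00448), Adam8, a membrane metalloprotease, -0.84 (adjusted p = 0.00494) and Cd9, a tetraspanin, -0.64 (adjusted p = 0.00212). Adam12, a metalloprotease also known from myoblast fusion, was higher (1.46, adjusted p = 0.0172, and 0.0744 without WT replicate 1). Cd47 had -0.28 (edgeR adjusted p = 0.105, and 0.0400 with the block).

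For genes of acid secretion, proteolysis and adhesion the shares that passed were near those of all tested genes (8.63% lower and 9.07% higher). Of 16 tested acid secretion and lysosome genes 1 fell (Slc37a2, a sugar phosphate transporter, -0.98, edgeR adjusted p = 0.00272) and 1 rose (Snx10, a sorting nexin, 0.51, adjusted p = 0.0172), with a median of 0.08 and 2 higher with the block. Lamp1, an abundant lysosomal membrane protein, was at 0.00 (adjusted p = 0.992). Snx10 did not pass without WT replicate 2, TCKO replicate 1 or TCKO replicate 2, with an edgeR adjusted p of up to 0.0763. Of 9 resorption proteases Ctsk alone passed (median 0.05), and Ctsd had -0.23 (adjusted p = 0.192). Of 6 tested adhesion and identity genes 1 fell, Cd109 (-0.35, adjusted p = 0.0180, and 0.0830 without TCKO replicate 2), with a median of 0.08 and 2 higher with the block, and Cd44 had -0.24 (adjusted p = 0.185).

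**Figure D5:**
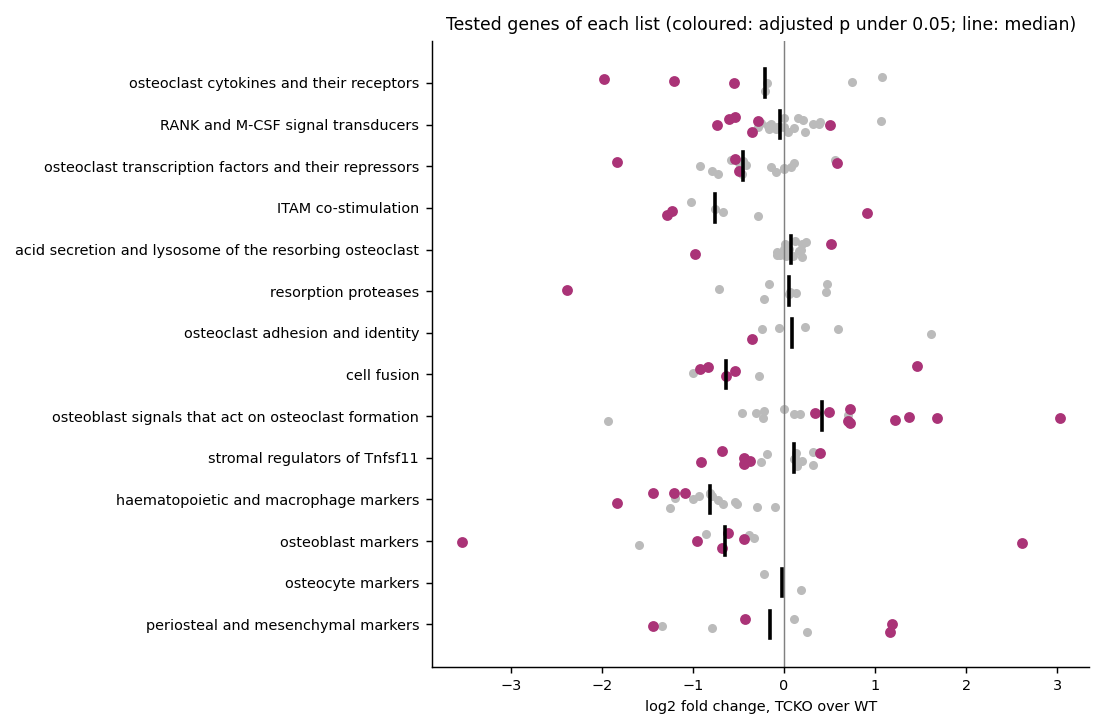
Log2 fold change (TCKO over WT) of every tested gene in each list, coloured where the edgeR adjusted p was under 0.05, with a black line at the median of the list and vertical jitter for legibility. The osteoblast signals have 9 coloured points above 0 and none below, the macrophage markers 4 below 0, and Ctsk is the single coloured point among the proteases at -2.39.

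To see whether a change was shared along the chromosome, genes within 100 kb of the 10 genes were read. Of 4 tested neighbours of Ctsk none passed in edgeR, nor at an unadjusted p under 0.05, among them Arnt, whose gene body ends 2016 bp away (-0.13, edgeR adjusted p = 0.290), and Ctss, the cathepsin of antigen-presenting cells, 17424 bp away (-0.72, adjusted p = 0.364). Over all 10 genes 24 neighbours were tested, of which 1 was lower, Pltp near Mmp9 (-0.90, adjusted p = 0.0239). The 3 that were higher were Cnn1 near Acp5 (1.80, adjusted p = 0.000130), Rims2 near Dcstamp (2.28, adjusted p = 0.00965) and Zfp334 near Ocstamp (0.34, adjusted p = 0.0360). These counts were near the shares of all tested genes, 8.63% lower and 9.07% higher. Pltp was at 0.0970 without WT replicate 2 and Zfp334 at 0.128 without TCKO replicate 1. Tnfsf11, Tnfrsf11b and Atp6v0d2 had no tested neighbour. The 1 gene that overlaps a gene of the set, 6530413G14Rik over Acp5, held 0 counts.

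Profiles most like those of the ligand, the decoy and Ctsk were sought among 9262 genes with at least 100 mean counts. The measure was the root mean square distance of centred log2 CPM over the 6 libraries. Since the genes were picked by likeness in these libraries, their similar fold changes and calls follow from the choice and are no separate evidence. Nearest to Tnfsf11 were Hip1r (0.128), Phlda1 (0.130) and Peg10 (0.149), with log2 fold changes of 0.99, 0.88 and 1.25. Like Tnfsf11 none of these passed with genotype only (edgeR adjusted p = 0.0640, 0.178 and 0.0718). All passed with the block (edgeR adjusted p = 0.00134, 0.00354 and 0.00231), where 12.0% of all tested genes were higher. Nearest to Tnfrsf11b were Trp53i13 (0.0613), Rpl35a (0.0738) and Arl10 (0.0756), and none passed. Nearest to Ctsk were Calhm5 (0.140), Ehd3 (0.162) and the fibrillar collagen gene Col11a1 (0.171), with log2 fold changes of -2.62, -2.22 and -2.10 (edgeR adjusted p = 0.000114, 2.67e-05 and 0.000130).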

How the data were processed

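Poly(A) RNA was sequenced in 3 WT and 3 TCKO libraries. The authors aligned reads to GRCm38 (Ensembl annotation) with STAR 2.7.0e and counted them per gene with featureCounts 2.0.0, and the deposited values are raw counts with summed exon lengths. Symbols were matched by identifier for 99.4% of genes. The library kit is directional, whether counting used the strand is not given in the sources used here, and 0 columns of other samples were present. The test was that of edgeR 4.0.16 (R 4.3.3): filterByExpr defaults (13826 genes, 99.7% to 99.8% of counts), TMM factors, and the quasi-likelihood test of genotype without covariates, with p-values adjusted by Benjamini-Hochberg over all tested genes and a threshold of 0.05. The study used DESeq2, run here (1.42.0) as an alternative. CPM and RPKM use TMM-scaled library sizes. Standard errors come from the F statistic. The procedure was tested on simulated data, but no outcome of that test is given here, so it adds no support to the p-values.

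Replicate numbers were taken from the titles. Between WT and TCKO libraries of the same number, deviations from group means correlated at 0.204, 0.214 and 0.347 over 13826 genes. Libraries of different numbers were not correlated in this way, so these values cannot show that the numbers pair the samples. The replicate block therefore rests on the titles alone. The labels do not say whether libraries came from separate animals, so p-values measure the spread between these libraries. All pairs of replicates differed beyond counting noise, and each library was kept as 1 sample. Such an excess does not show that replicates 1 and 2 of a genotype are independent. Their chi-square per degree of freedom was only 1.69 (WT) and 2.04 (TCKO). If they are not independent, the p-values of the main test are too small. The fits with replicates 1 and 2 summed are given below for that reason.

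The 10 genes and all lists were chosen with earlier results of these data known. Named genes are the 10, Tet1 to Tet3, up to 4 per list past the threshold with the largest change and the most abundant that did not pass, neighbours within 100 kb that passed, and the 3 nearest profiles. The rule also named 1 gene that is not reported here. The ratio of Tnfsf11 to Tnfrsf11b was compared by an exact permutation test over libraries. Alternatives were RLE or upper-quartile factors, other filters, DESeq2, a robust fit, a replicate block, a term for replicate 3, replicates 1 and 2 summed with and without a block, and the omission of each library in turn.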

Additional observations from a re-analysis of the deposited data

How the results depend on the processing

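Ctsk passed the threshold in all alternatives, and of 49 named genes past it 11 did so in every alternative, while 14 of 26 not past it passed in at least 1. At this depth Dcstamp and Ocstamp, with at most 1 count in any library, were not detectable above the floor of 3 counts. With genotype only, 437 genes were called higher and 441 lower at over 2-fold, which became 178 and 146 with replicates 1 and 2 summed. The 1254 genes higher and 1193 lower at an adjusted p under 0.05 became 2190 and 2082 with a term for replicate 3, 217 and 169 with replicates 1 and 2 summed, and 584 and 566 with the sums and a replicate block, and ran from 603 to 1613 and from 550 to 1509 with 1 library left out. Of the 10 genes, 1 was higher (Tnfsf11) with no filter, with the replicate block, with the term for replicate 3 and with the sums and block, and 2 were lower (Ctsk and Atp6v0d2) with no filter. With no filter 1483 of 26350 tested genes were higher and 1428 lower. With the replicate block 12.0% of 13826 were higher and 11.5% lower. The blocked difference in the log2 ratio of Tnfsf11 to Tnfrsf11b was 1.17, and the difference was 1.69 within replicate 3 and 0.82 to 1.44 with 1 library left out. Beyond the changes given beside the results, the replicate block changed no call among the 10 genes.

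With 1 library left out, the log2 fold changes of genes whose sign reversed ran from -0.32 to 0.0031 for Tnfrsf11b, -0.52 to 0.0060 for Csf1, -0.0602 to 0.0357 for Lamp1, -0.0715 to 0.41 for Il6st, -0.23 to 0.0095 for Trp53i13, -0.17 to 0.109 for Rpl35a and -0.21 to 0.0383 for Arl10. Without WT replicate 3 these were Tnfrsf11b (0.0031), Csf1 (0.0060), Lamp1 (-0.0602), Il6st (-0.0188), Trp53i13 (0.0095), Rpl35a (0.109) and Arl10 (0.0383). Without TCKO replicate 1 they were Lamp1 (-5e-04) and Il6st (-0.0715), without TCKO replicate 2 Lamp1 (-0.0180) and Il6st (-0.0432), and with the sums and block Il6st (-0.0776). The cause of these changes was not tested.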
